A study of Homo sapiens with 16 samples.

Results

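The proteasome subunit genes were taken as the genes whose symbol is PSMA, PSMB, PSMC, PSMD or PSME with a number. The interferon-inducible subunits PSMB8, PSMB9 and PSMB10 were left out of them. The rule found 55 probe sets of 33 genes, out of 22277 probe sets and 11963 genes with a single symbol on the array. For the 15 genes with more than 1 probe set, the one with the highest mean over the 16 arrays was used. The genes comprised 6 of the 20S alpha ring, 7 of the 20S beta ring, 5 ATPases of the 19S base, 12 PSMD genes and 3 activators. By their known roles PSMD5, PSMD9 and PSMD10 are assembly chaperones of the 19S base and not subunits of the finished particle. Probe sets of PSMA6 and PSME2 carry a further gene symbol in the annotation and were not used, and PSMC5, PSMD7, PSMD13 and PSMA8 were not analysed here. Bulk RNA of A673 cells, a Ewing sarcoma line driven by the fusion oncogene EWS-FLI1, had been measured on 16 Affymetrix arrays. All cells were of 1 clone, Asp14, and carried a doxycycline-inducible EWS-FLI1 knockdown construct, a TR expression vector, and all were grown with Zeocin and Blasticidin to select for the hairpin and TR vectors. Cells of 0 h were untreated controls (4 arrays). The other groups had received 1 µg/ml doxycycline for 18 h (3 arrays), 36 h (3 arrays), 53 h (2 arrays), 72 h (2 arrays) or 96 h (2 arrays). No array held untreated cells of a later time and none held doxycycline-treated cells without the hairpin, so the knockdown, the drug and the time in culture cannot be told apart. All values below are log2 expression values, and a change is a difference of log2 means.

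The proteasome degrades proteins marked with ubiquitin. Its 20S core is a stack of rings, in which outer alpha rings form a gate and inner beta rings enclose the proteolytic sites of PSMB5, PSMB6 and PSMB7. A 19S cap binds the ubiquitin chain, removes it through the deubiquitinase PSMD14 and unfolds the substrate with a ring of PSMC ATPases, while PSME proteins open the gate in other ways. In human cells the factor NFE2L1 (NRF1) raises transcription of its subunits together when proteasome activity falls short.

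Promoter sequences of 28 of the 33 genes were found in the RefSeq table (GRCh38.p14). They are shown for the 19S gene with the lowest change at 72 h (PSMD12), for genes with the smallest time-course p-value of their group (PSMC3 and PSMD14) and for the one gene that rose at 36 h and 53 h (PSME1). Each is the stretch of 250 bases before the annotated start, written 5′ to 3′ on the strand of the gene. The stretches are chr11:47426440-47426689 on the minus strand for PSMC3, chr17:67366578-67366827 on the minus strand for PSMD12, chr2:161308175-161308424 on the plus strand for PSMD14 and chr14:24135944-24136193 on the plus strand for PSME1. Capitals mark matches, on either strand, to the antioxidant response element core TGACNNNGC that NRF1 and NRF2 can bind, the CCAAT box, the E2F motifs TTTCGCGC and TTTGGCGC and the ETS core CCGGAAGT.
PSMC3: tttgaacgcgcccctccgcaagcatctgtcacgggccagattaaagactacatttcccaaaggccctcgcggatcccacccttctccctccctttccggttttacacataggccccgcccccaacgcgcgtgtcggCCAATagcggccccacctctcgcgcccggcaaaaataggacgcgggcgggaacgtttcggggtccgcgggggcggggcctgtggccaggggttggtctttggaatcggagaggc
PSMD12: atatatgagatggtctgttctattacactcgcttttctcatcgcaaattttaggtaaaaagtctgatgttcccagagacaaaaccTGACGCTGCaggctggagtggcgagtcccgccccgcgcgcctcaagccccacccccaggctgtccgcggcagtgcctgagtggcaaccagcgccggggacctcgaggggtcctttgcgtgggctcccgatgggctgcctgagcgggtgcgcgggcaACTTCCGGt
PSMD14: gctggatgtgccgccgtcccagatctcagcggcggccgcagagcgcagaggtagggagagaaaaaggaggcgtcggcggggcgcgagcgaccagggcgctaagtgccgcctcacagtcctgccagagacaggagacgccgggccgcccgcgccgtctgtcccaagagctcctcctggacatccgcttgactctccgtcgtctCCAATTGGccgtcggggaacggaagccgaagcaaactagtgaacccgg
PSME1: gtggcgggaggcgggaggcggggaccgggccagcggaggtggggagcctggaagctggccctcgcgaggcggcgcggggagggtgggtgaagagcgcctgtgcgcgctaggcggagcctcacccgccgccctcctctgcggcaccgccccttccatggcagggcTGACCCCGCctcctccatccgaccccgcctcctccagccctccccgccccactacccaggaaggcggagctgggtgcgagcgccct
The stretch of PSMC3 held a CCAAT box. That of PSMD12 held an antioxidant core and, beside the start, an ETS core on the reverse strand. In PSMD14 a CCAAT box and its reverse complement overlapped, and an ETS core that begins at -4 runs over the start and is not in the printed stretch. The PSME1 stretch held an antioxidant core. Over windows reaching 50 bases past the start, the antioxidant core was present in 9 of 28 genes (32.1%), against 13.6% of 27305 promoters of the same length. CCAAT was present in 14 (50.0%, against 35.7%) and the ETS core in 6 (21.4%, against 4.44%). Of the E2F motifs, TTTCGCGC was in 0 (against 0.546%) and TTTGGCGC in 2 (7.14%, against 0.659%). A match describes letters and is not a binding site shown by these data. The antioxidant core of other members before the start is shown with 10 bases on either side, for PSMB3 at chr17:38752637-38752645, PSMD3 at chr17:39980770-39980778, PSMD5 at chr9:120843048-120843056, PSMD9 at chr12:121888688-121888696 and PSME4 at chr2:53971019-53971027, where the capitals mark the core on either strand. PSMD9 held a second core before the start, at chr12:121888641-121888649, shown on its second line.
PSMB3: gcctccgtttTGACTTTGCaaccaaacta
PSMD3: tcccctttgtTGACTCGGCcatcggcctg
PSMD5: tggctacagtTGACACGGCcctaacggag
PSMD9: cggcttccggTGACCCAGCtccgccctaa
PSMD9: cgctactcctGCCGGGTCAccacaggcgc
PSME4: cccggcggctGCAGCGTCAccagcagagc

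FLI1, the 3′ partner gene of the fusion, changed by -3.20, -3.67, -3.28, -3.08 and -3.35 at 18, 36, 53, 72 and 96 h against 0 h and passed the limma threshold each time. The Ewing sarcoma markers NKX2-2, CD99, STEAP1 and CCND1 all passed the filter on low values. NR0B1, also listed, had no probe set with a single symbol. At 96 h against 0 h NKX2-2, STEAP1, CCND1 and CD99 changed by -2.80, -2.53, -2.33 and -0.38, and each passed the limma threshold. Of the 4 blood, 6 epithelial and 6 endothelial markers measured, 0, 1 and 1 reached a log2 value of 4 on 2 arrays (KRT18 and KDR), and the mean level of each list over time ran from 2.13 to 2.19, 3.16 to 3.75 and 2.65 to 3.53. Both detected markers moved with time. KDR read 3.44 to 3.84 at 0 h, 6.10 to 7.14 at 36 h, 8.50 to 8.64 at 53 h, 7.24 to 7.51 at 72 h and 4.64 to 5.76 at 96 h, and was thus highest when the median of the proteasome genes was lowest. KDR was below log2 4 on every untreated array and passed the filter only through treated arrays, so no fold or test is given for it. KRT18 changed by -1.65 at 36 h, 0.95 at 72 h and 0.96 at 96 h against 0 h (limma adjusted p = 2.41e-05, 0.00482 and 0.00542). The part of these markers in the results was not tested. Upper quartiles of the arrays lay between 8.08 and 8.18. The difference between 3′ and 5′ probe sets of ACTB, a measure of RNA quality, was 1.47 to 2.06 at 0 h, 2.09 to 2.45 at 36 h, 1.83 to 2.34 at 53 h, 1.61 to 1.70 at 72 h and 1.56 to 1.83 at 96 h. All 36 h arrays and 1 of the 2 arrays at 53 h thus lay above every 0 h array, at times when the members were low, while those of 72 and 96 h lay within the 0 h range. For GAPDH the same difference was 0.07 to 0.13 at 0 h, 0.14 to 0.18 at 18 h and 0.17 to 0.19 at 36 h. It was 0.07 to 0.22 at 53 h, 0.03 to 0.14 at 72 h and 0.05 to 0.17 at 96 h. By GAPDH all arrays of 18 and 36 h, and 1 array each of 53, 72 and 96 h, lay above every 0 h array. The part of RNA quality in the results was not tested. The labels number the replicates but name no separate cultures, and each p-value therefore covers only the spread between arrays, which may be technical. Replicates 2 and 3 at 0, 18 and 36 h were alike (SD of their difference 0.16 to 0.19 over genes, against 0.23 to 0.53 for other pairs of replicates), and replicate 1 stood apart from them. In bulk RNA, fewer cells of a kind and less of a transcript per cell cannot be told apart.

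Transcripts of nearly the whole complex went down together between 18 and 36 h, stayed low at 53 and 72 h and were close to the untreated level again at 96 h. All 33 genes passed the filter on low values, with 0 h means from 9.16 to 13.16. In the F test over the time course, 33 of 33 passed the adjusted threshold of 0.05 (limma, adjusted p from 8.74e-09 to 0.0189), where 84% of the 7304 genes tested did. At 18 h against 0 h, 1 gene was higher (background of all genes 14.8%) and 1 was lower (14.7%), with a median change of 0.03 against 0.02 for all genes. At 36 h, 28 were lower and 1 was higher (background 32.1% and 33.2%), and the median was -0.53 against 0.02. At 53 h, 32 were lower and 1 higher (background 34.5% and 31.8%), with a median of -0.77 against -0.01 for all genes. At 72 h, 31 were lower and 0 higher (background 39.2% and 29.3%), with a median of -0.69, a 1.61-fold decrease, against -0.11 for all genes. At 96 h, 7 were lower and 1 higher (background 35.7% and 25.1%), and the median was -0.14 against -0.10. The members' share of lower genes was thus above the background at 36, 53 and 72 h, and below it at 18 and 96 h. Per array, the median over members lay between -0.61 and -0.42 at 36 h, -0.77 and -0.72 at 53 h, -0.72 and -0.64 at 72 h, and -0.17 and -0.10 at 96 h.

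With replicate 1 of 0, 18 and 36 h left out, the counts of lower genes were 28, 32, 32 and 8 at 36, 53, 72 and 96 h. With replicates 2 and 3 averaged they were 27, 30, 31 and 6. The share of all genes called also differs between settings and is not set beside these counts. They are read only against the counts of the main fit. Centring each array on its median of all probe sets moved the median of all genes by about -0.19 at 96 h, to -0.29, and the members' median to -0.33. On that scale 24 members were lower and 0 higher at 96 h, where 46.9% of all genes were lower and 19.7% higher. Relative to the median of all genes the members' median was -0.04 at 96 h on both scales, while at 72 h it was -0.58 as deposited and -0.57 after centring. Higher genes made up 41.2% of all calls at 96 h as deposited and 29.6% after centring.

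**Figure D1:**
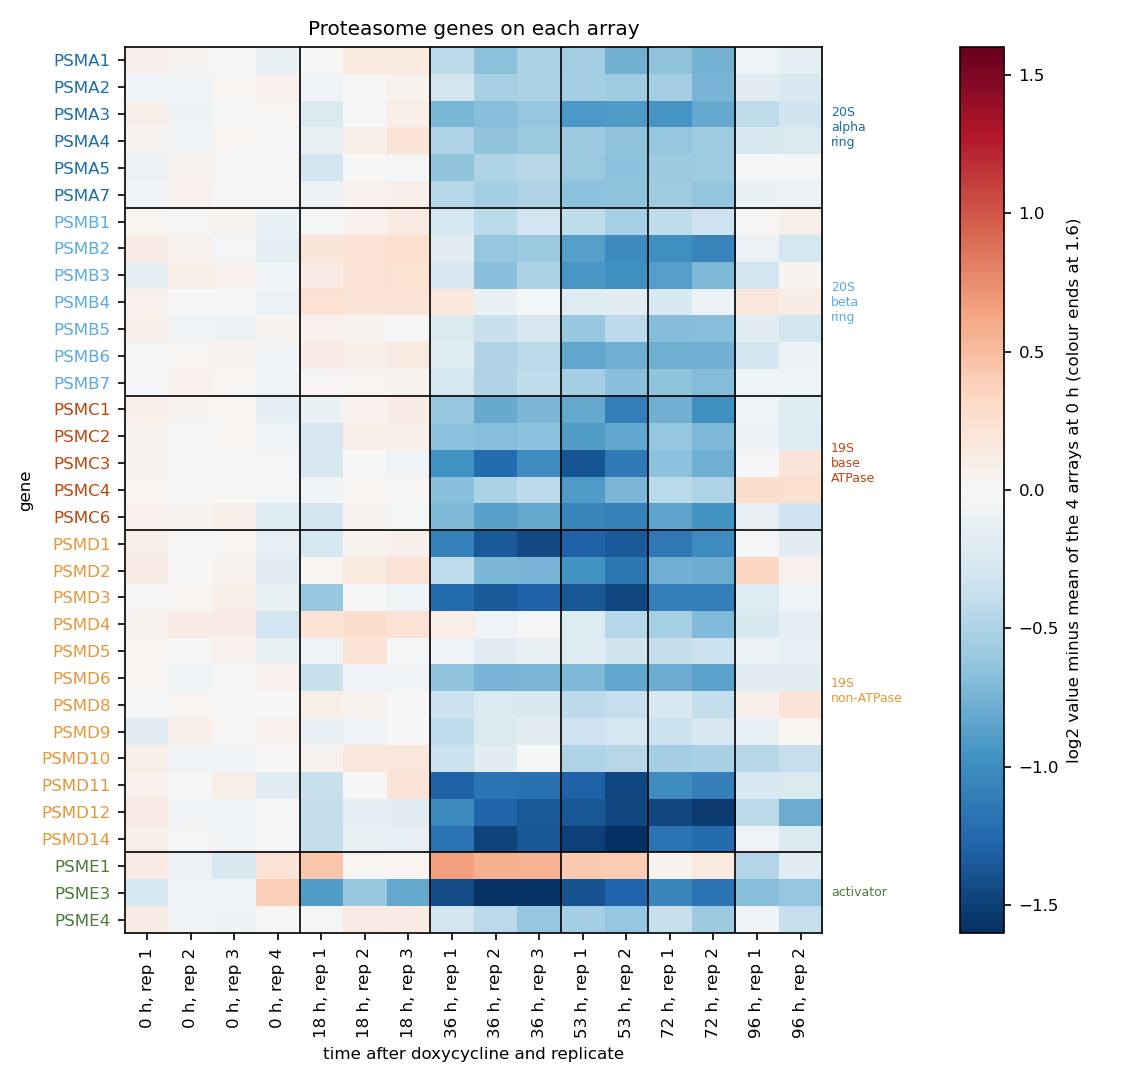
Log2 value of each of the 33 genes (down the page, by sub-complex) on each of the 16 arrays (across, by time and replicate), as the difference from the mean of that gene at 0 h. Blue is lower and red is higher; the columns of 36, 53 and 72 h are mostly blue, deepest in PSMD and PSME3 cells and red for PSME1, and the 96 h columns are pale.

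**Figure D2:**
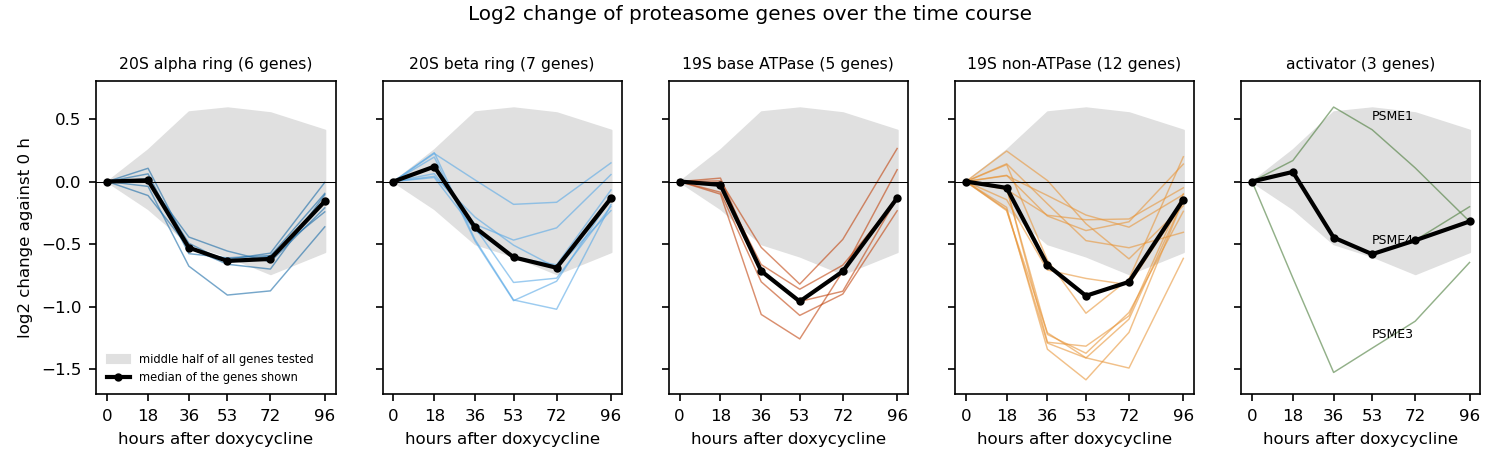
Log2 change against 0 h (vertical axis) by hours after doxycycline (horizontal axis) for the genes of each sub-complex; thin lines are genes, the black line is their median and grey is the middle range between the quartiles of all genes tested. Medians of each group were lowest at 53 or 72 h, and only the PSME1 line lay above 0 at 53 h.

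The 6 alpha-ring genes, which form the gate, moved together. All 6 fell at 36, 53 and 72 h (background 32.1%, 34.5% and 39.2%), with medians of -0.53, -0.63 and -0.62. PSMA7 had the smallest time-course p of the ring. It read 12.09, 12.21, 12.17 and 12.13 at 0 h and 12.06, 12.22 and 12.23 at 18 h. At 36 h it read 11.70, 11.61 and 11.66, at 53 h 11.50 and 11.51, at 72 h 11.59 and 11.52, and at 96 h 12.05 and 12.06. Arrays of 36, 53 and 72 h all lay below every array of 0 h, and those of 96 h lay just under it. The change at 72 h against 0 h was -0.60 (SE 0.06, limma adjusted p = 1.36e-06). PSMA5, with the largest time-course p of the ring, read 11.16, 11.31, 11.27 and 11.27 at 0 h and 10.94, 11.26 and 11.22 at 18 h. Its arrays read 10.61, 10.76 and 10.81 at 36 h, 10.66 and 10.60 at 53 h, 10.67 and 10.69 at 72 h, and 11.26 and 11.23 at 96 h. The 96 h arrays were back among those of 0 h, with a change of -0.01 (SE 0.09, limma adjusted p = 0.957). PSMA1, PSMA2, PSMA3 and PSMA4 changed by -0.70, -0.64, -0.87 and -0.59 at 72 h. Still lower at 96 h were 3 of the 6, PSMA2 (-0.21), PSMA3 (-0.36) and PSMA4 (-0.24). With 35.7% of all genes lower then, a count of this size is not read as a result. The call of PSMA2 was lost in 9 of the alternative settings. Among them were the replicate number as a block (-0.18, limma adjusted p = 0.0785), array weights and the mean of its probe sets. It was also lost without 96h replicate 2 or 0h replicate 3 or 4. PSMA4 lost its call at 96 h without either array of that time.

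Genes of the beta ring fell too, PSMB4 the least, which was called lower than at 0 h at 53 h only. Of its 7 genes, the number that fell was 6, 7 and 6 at 36, 53 and 72 h (background 32.1%, 34.5% and 39.2%). The medians were -0.37, -0.61 and -0.69. The catalytic subunits are PSMB5 (chymotrypsin-like), PSMB6 (caspase-like) and PSMB7 (trypsin-like). PSMB5 read 12.05, 11.91, 11.89 and 12.01 at 0 h and 12.04, 12.01 and 11.97 at 18 h. It then read 11.74, 11.61 and 11.69 at 36 h, 11.36 and 11.55 at 53 h, 11.27 and 11.28 at 72 h, and 11.80 and 11.67 at 96 h. Its 72 h arrays were the lowest, and those of 96 h lay between them and the untreated ones. The change was -0.69 at 72 h (SE 0.07, limma adjusted p = 1.32e-06) and -0.23 at 96 h (SE 0.07, adjusted p = 0.0122). The call at 96 h was lost without 96h replicate 2 and with array weights.

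PSMB6 read 11.68, 11.73, 11.75 and 11.66 at 0 h and 11.82, 11.80 and 11.84 at 18 h. Thereafter its arrays read 11.52, 11.22 and 11.27 at 36 h, 10.87 and 10.92 at 53 h, 10.92 and 10.94 at 72 h, and 11.39 and 11.62 at 96 h. The 53 and 72 h arrays lay together, below every other array, and the change at 72 h was -0.77 (SE 0.08, limma adjusted p = 1.79e-06). PSMB7 read 12.39, 12.49, 12.45 and 12.36 at 0 h and 12.44, 12.46 and 12.46 at 18 h. It read 12.14, 11.94 and 12.01 at 36 h, 11.88 and 11.76 at 53 h, 11.78 and 11.73 at 72 h, and 12.35 and 12.36 at 96 h. The groups of 36, 53 and 72 h did not overlap with 0 h, and the change at 72 h was -0.67 (SE 0.06, limma adjusted p = 4.54e-07). The catalytic genes thus fell 1.61, 1.71 and 1.59-fold at 72 h against 0 h (PSMB5, PSMB6 and PSMB7).

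PSMB4, a structural subunit of the ring, differed from its neighbours. It read 12.95, 12.89, 12.88 and 12.78 at 0 h, 13.12, 13.08 and 13.10 at 18 h, and 13.05, 12.77 and 12.84 at 36 h. At 53 h it read 12.69 and 12.70, at 72 h 12.64 and 12.78, and at 96 h 13.05 and 12.997. The 18 h arrays were above and the 53 h arrays below all untreated ones, while the 36 h arrays overlapped with them. PSMB4 was higher at 18 h by 0.22 (SE 0.06, limma adjusted p = 0.0181), a call lost with the replicate block (0.19, adjusted p = 0.0593), with replicates 2 and 3 averaged, and without 0h replicate 4 or 18h replicate 1. At 53 h it changed by -0.18 (adjusted p = 0.0392), lost in 11 of the alternative settings. The value at 72 h was -0.17 (adjusted p = 0.056), which passed with the block (-0.21, adjusted p = 0.0369). The structural genes PSMB1, PSMB2 and PSMB3 fell by 0.37, 1.02 and 0.80 at 72 h. PSMB2 had the largest change of the 20S genes.

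All 5 ATPase genes of the 19S base, which unfold and thread substrates, fell at 36, 53 and 72 h (background 32.1%, 34.5% and 39.2%). Their medians were -0.72, -0.96 and -0.72. PSMC3, an ATPase whose tail helps to open the gate, read 11.97, 11.92, 11.92 and 11.91 at 0 h and 11.68, 11.94 and 11.87 at 18 h. Values were 10.97, 10.70 and 10.94 at 36 h, 10.55 and 10.79 at 53 h, 11.27 and 11.15 at 72 h, and 11.91 and 12.14 at 96 h. The lowest arrays were those of 36 and 53 h, and the 72 h arrays already lay above them. PSMC3 fell by 1.26 at 53 h (SE 0.10, limma adjusted p = 1.6e-07), a 2.39-fold decrease, and by 0.72 at 72 h. PSMC2 read 12.74, 12.67, 12.72 and 12.62 at 0 h and 12.42, 12.80 and 12.77 at 18 h. It read 12.03, 12.01 and 12.03 at 36 h, 11.80 and 11.86 at 53 h, 12.07 and 11.97 at 72 h, and 12.61 and 12.48 at 96 h. Arrays of 36, 53 and 72 h were all below the untreated ones, with a change of -0.67 at 72 h (SE 0.09, limma adjusted p = 1.6e-05). A dimmer probe set of PSMC2 went the other way at 72 h (0.85, limma adjusted p = 0.00258), so that gene is uncertain. PSMC1, PSMC4 and PSMC6 fell by 0.88, 0.46 and 0.90 at 72 h. PSMC4 was the 1 member called higher at 96 h than at 0 h, by 0.26 (SE 0.07, limma adjusted p = 0.00765), but after centring the value was 0.07 (adjusted p = 0.477).

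The lowest changes at 53 and 72 h were in PSMD genes of the 19S cap. Of 12 genes, 9 fell at 36 h (background 32.1%), and 12 at both 53 and 72 h (34.5% and 39.2%), with medians of -0.67, -0.91 and -0.80. The 6 lid genes (PSMD3, PSMD6, PSMD8, PSMD11, PSMD12 and PSMD14) had a median of -1.22, -1.39 and -1.07 at these times, and the 3 non-ATPase genes of the base (PSMD1, PSMD2 and PSMD4) of -0.63, -1.05 and -0.78. For the 3 chaperone genes it was -0.18, -0.31 and -0.37. These groupings follow known roles and their difference was not tested.

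PSMD14, the deubiquitinase of the lid, read 12.79, 12.67, 12.65 and 12.66 at 0 h and 12.31, 12.58 and 12.57 at 18 h. It then read 11.52, 11.21 and 11.33 at 36 h, 11.20 and 11.02 at 53 h, 11.51 and 11.46 at 72 h, and 12.64 and 12.46 at 96 h. Arrays of 18 h already lay below all of 0 h, though the change of -0.21 did not pass (limma adjusted p = 0.0887). The change was -1.34 at 36 h (SE 0.09, limma adjusted p = 2.79e-08) and -1.59 at 53 h (SE 0.10, adjusted p = 1.44e-08), a 3.00-fold decrease. At 96 h it was -0.14 (SE 0.10, limma adjusted p = 0.222). PSMD12, a scaffold subunit of the lid, read 11.59, 11.41, 11.39 and 11.45 at 0 h and 11.08, 11.32 and 11.29 at 18 h. Its later arrays read 10.45, 10.18 and 10.12 at 36 h, 10.09 and 10.01 at 53 h, 10.01 and 9.93 at 72 h, and 11.02 and 10.67 at 96 h. Each treated group lay below all untreated arrays, with 72 h lowest, and 96 h had come back only in part. The change was -1.49 at 72 h (SE 0.11, limma adjusted p = 7.15e-08), a 2.81-fold decrease, and -0.61 at 96 h (SE 0.11, adjusted p = 0.000422). The lid genes PSMD3, PSMD6, PSMD8 and PSMD11 fell by 1.10, 0.83, 0.32 and 1.05 at 72 h. PSMD8 thus changed less than the other lid genes named.

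PSMD1 and PSMD2, the large scaffold proteins of the base, fell by 1.07 and 0.78 at 72 h. PSMD4, a ubiquitin receptor, was at 0.01 at 36 h (limma adjusted p = 0.948) and fell later, to changes of -0.34 at 53 h (adjusted p = 0.0178) and -0.62 at 72 h, where the adjusted p was 0.000254. Its call at 53 h was lost without 53h replicate 2 and with replicates 2 and 3 averaged. Among the chaperones, PSMD9 read 9.66, 9.93, 9.85 and 9.90 at 0 h and 9.70, 9.77 and 9.83 at 18 h. It read 9.43, 9.61 and 9.65 at 36 h, 9.50 and 9.56 at 53 h, 9.49 and 9.57 at 72 h, and 9.70 and 9.87 at 96 h. The 36 to 72 h arrays lay below the untreated ones by a narrow margin, and the change at 72 h was -0.30 (SE 0.10, limma adjusted p = 0.0134). That call was lost with the mean of its probe sets and without 72h replicate 1. PSMD5 changed by -0.37 and PSMD10 by -0.53 at 72 h. PSMD10, also called gankyrin, was the chaperone still lower at 96 h (-0.41, SE 0.09, limma adjusted p = 0.00151).

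The 3 activators did not move together. PSME3 (PA28gamma), a nuclear activator that does not depend on ubiquitin, read 9.13, 9.36, 9.35 and 9.79 at 0 h and 8.52, 8.80 and 8.59 at 18 h. It read 7.97, 7.83 and 7.84 at 36 h, 8.01 and 8.14 at 53 h, 8.36 and 8.23 at 72 h, and 8.73 and 8.80 at 96 h. All treated arrays lay below all untreated ones, with the lowest at 36 h, earlier than in any other member. PSME3 was the member that fell at 18 h (-0.77, SE 0.13, limma adjusted p = 0.000865). It fell 2.88-fold at 36 h (-1.53, SE 0.13, adjusted p = 3.23e-07) and was still lower at 96 h (-0.65, SE 0.15, adjusted p = 0.00189).

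PSME1 (PA28alpha), an interferon-inducible activator linked to antigen processing, read 10.60, 10.37, 10.21 and 10.69 at 0 h and 10.91, 10.50 and 10.49 at 18 h. Its arrays read 11.13, 11.04 and 11.03 at 36 h, 10.89 and 10.88 at 53 h, 10.52 and 10.63 at 72 h, and 9.998 and 10.30 at 96 h. The 36 and 53 h arrays lay above all untreated ones, and the other groups overlapped with them. It rose by 0.60 at 36 h (SE 0.13, limma adjusted p = 0.000945) and by 0.41 at 53 h (SE 0.14, adjusted p = 0.0209). The call at 53 h was lost after centring (0.27), with replicates 2 and 3 averaged, and without 0h replicate 3 or either 53h array. PSME4 (PA200), an activator known for a role in histone turnover, fell by 0.45, 0.58 and 0.47 at 36, 53 and 72 h. Its call at 72 h was lost with the mean of its probe sets (-0.23, limma adjusted p = 0.134), and its other probe sets were at 0.05 (adjusted p = 0.926) and -0.28 (adjusted p = 0.244) at that time.

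The drop fell mostly in the interval from 18 to 36 h. In that comparison, added after the data were seen, 29 members were lower and 1 higher at 36 h than at 18 h (background 22.9% and 21.9%), with a median of -0.56 against 0.01 for all genes. At 36 h, 28 genes had every array below those of 0 h (background 33.1%), and at 72 h 32 did (background 44.9%). The lowest mean was at 53 h in 21 genes, at 72 h in 10, and at 36 h (PSME3) and 96 h (PSME1) in 1 each. The genes lowest at 72 h were PSMA1, PSMA2, PSMB2, PSMB5, PSMB7, PSMD4, PSMD5, PSMD6, PSMD10 and PSMD12.

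The return came between 72 and 96 h. At 96 h against 72 h, 27 members were higher and 0 lower (background 17.1% and 10.1%), with a median of 0.57 against 0.03 for all genes. In 32 genes both 96 h arrays lay above both 72 h arrays (background 36.3%), PSME1 being the exception. The largest rise was that of PSMD14 (1.06, SE 0.11, limma adjusted p = 1.51e-05), and those of PSMD1 and PSMD2 were both 0.98. PSMD5, PSMD9, PSMD10, PSME1, PSME3 and PSME4 did not pass in this comparison, at 0.26, 0.25, 0.12, -0.43, 0.47 and 0.27. With the replicate block PSMD9, PSME1 and PSME3 passed (limma adjusted p = 0.0474, 0.0473 and 0.0175). That block joins arrays of 72 and 96 h by number, although deviations of same-numbered arrays of these times correlated at only 0.16. The 96 h mean was nearer to that of 0 h than to that of 72 h in 31 genes, and nearer to 72 h in PSMD10 and PSME3. FLI1 stayed low over the same interval (-0.27 at 96 h against 72 h, SE 0.19, limma adjusted p = 0.322).

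**Figure D3:**
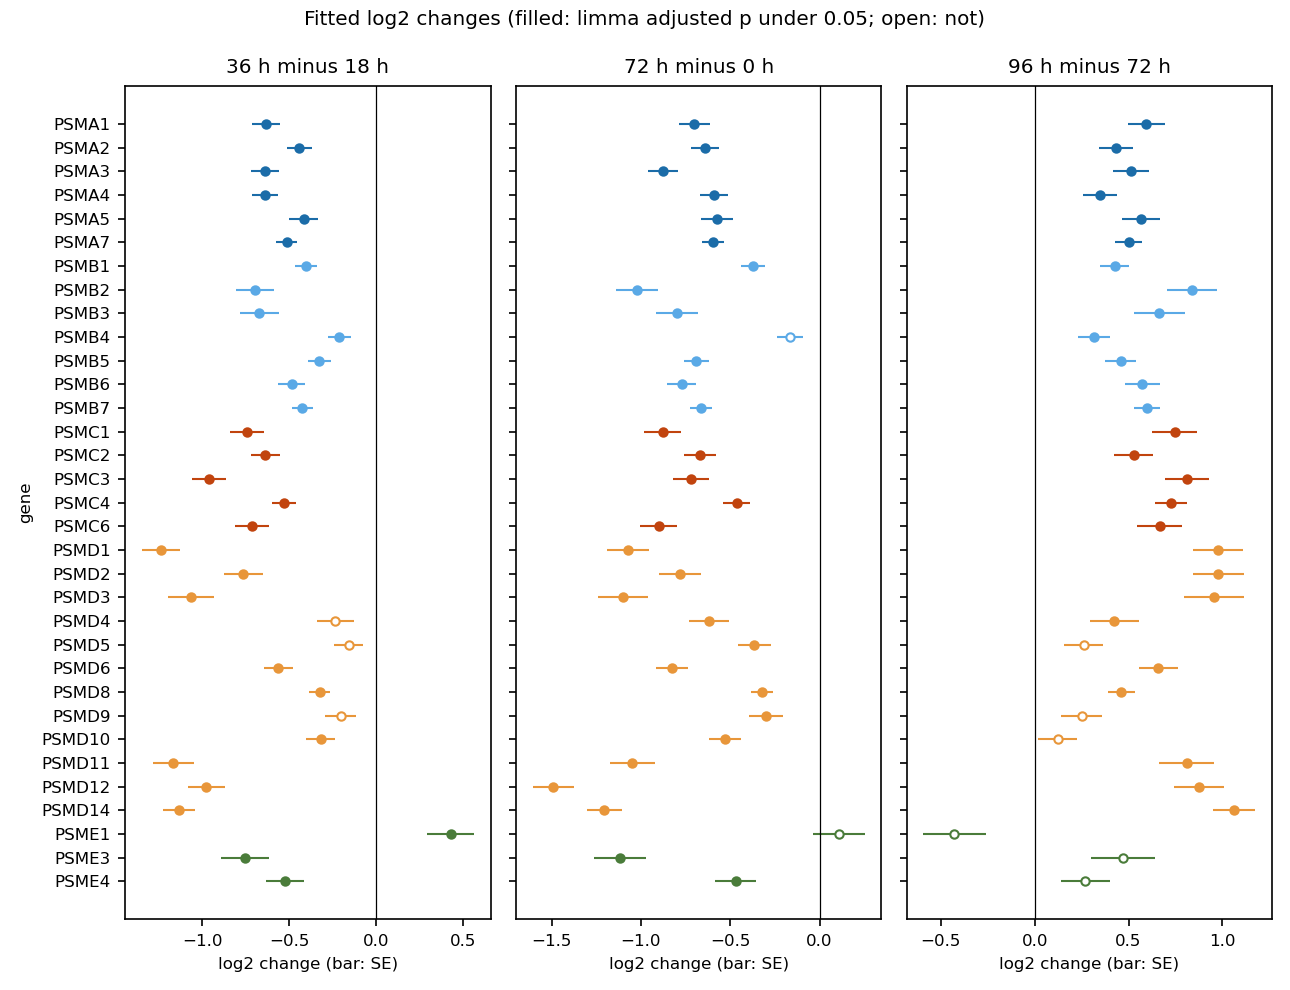
Fitted log2 change of each gene (down the page, coloured by sub-complex) for 36 h minus 18 h, 72 h minus 0 h and 96 h minus 72 h; points are estimates, bars are 1 SE, and filled points passed an adjusted p of 0.05. Points lie left of 0 in the first and middle panels and right of 0 in the last, apart from PSME1, which lies on the other side in each panel.

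The 19S genes (17, chaperones included) and the 20S genes (13) ran in parallel but not to the same depth at every time. Medians of 19S and 20S genes were -0.71 and -0.46 at 36 h, -0.96 and -0.62 at 53 h, -0.78 and -0.67 at 72 h, and -0.14 and -0.13 at 96 h. On each array the 19S median minus the 20S median was between -0.37 and -0.22 at 36 h and between -0.43 and -0.31 at 53 h. It lay between -0.12 and -0.10 at 72 h, -0.08 and 0.02 at 96 h, and -0.03 and 0.02 at 0 h. The 36 and 53 h arrays were therefore apart from those of 72 and 96 h, while the 18 h arrays (-0.26 to -0.02) overlapped with several groups, and no test was made. At 96 h against 72 h the medians were 0.73 for 19S and 0.51 for 20S genes.

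**Figure D4:**
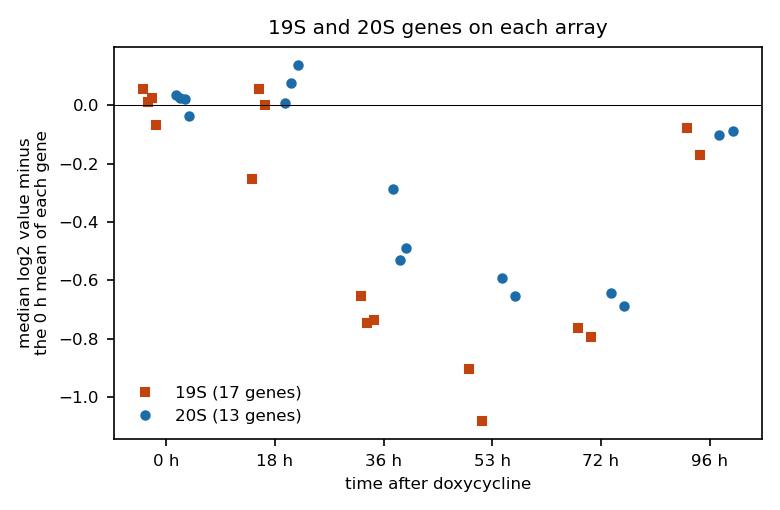
Median over the 17 genes of the 19S cap (squares) and the 13 genes of the 20S core (circles) on each array, as the log2 value minus the 0 h mean of each gene (vertical axis), by time (horizontal axis). The squares lie below the circles on every array of 36, 53 and 72 h, most at 53 h.

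The further 22 probe sets of these genes, of which 17 (12 genes) passed the filter, were tested among 12257 probe sets. Of the 17, 13, 14 and 13 were lower at 36, 53 and 72 h, and 1 was higher at 72 h, that of PSMC2. Of all 12257 probe sets, 31.6%, 32.9% and 36.7% were lower at these times and 29.5% were higher at 72 h. At 96 h, 5 were lower and 1 higher, and at 96 h against 72 h 9 were higher and 1, of PSME4, was lower (-0.75, limma adjusted p = 0.0312). The shares over all probe sets were 34.0% lower and 24.1% higher at 96 h, and 14.5% higher and 10.3% lower at 96 h against 72 h. The other probe set of PSMD12 had fallen already at 18 h (-0.82, limma adjusted p = 0.000316), where the one used had not passed.

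Genes that work with the proteasome were followed in 7 lists, with 35 of 46 genes tested. Over all lists 14 were lower and 8 higher at 36 h, 16 lower and 4 higher at 53 h, and 17 lower and 8 higher at 72 h. At 96 h 8 were lower and 8 higher. Of all genes tested, 32.1%, 34.5%, 39.2% and 35.7% were lower at 36, 53, 72 and 96 h. The shares higher were 33.2%, 31.8%, 29.3% and 25.1% at these times. Of the 35 list genes, the share lower was above that of all genes at 36, 53 and 72 h and below it at 96 h. The share higher was below that of all genes at each of these times, most at 53 h. This difference was not tested. The higher counts at 36, 53 and 72 h include PSMB8, which passed the filter only through the later groups. The shares of all genes also stand behind the counts of each list, which are too small to be read against them. Among 9 proteasome-associated proteins, 4, 6 and 8 fell at 36, 53 and 72 h. ADRM1, the ubiquitin receptor that recruits UCHL5, fell by 0.55 at 18 h (limma adjusted p = 0.00157), 1.69 at 36 h and 0.91 at 72 h, and was at -0.22 at 96 h (adjusted p = 0.115). UCHL5, a deubiquitinase of the cap, fell by 1.59 at 72 h and by 0.84 at 96 h (limma adjusted p = 6.07e-05). USP14, another such enzyme, fell by 0.76 at 72 h. Of 4 assembly factors, PSMG1, which pairs alpha subunits, fell by 1.28 and POMP, which matures the beta ring, by 0.36 at 72 h. PAAF1, a binder of base ATPases, rose by 0.58 at 36 h and fell by 0.72 at 72 h.

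In the list of shuttle and extraction factors, 4 of 7 fell at 36, 53 and 72 h. UFD1 and NPLOC4, cofactors of the segregase VCP, fell by 1.11 and 0.90 at 53 h, and NPLOC4 was higher at 96 h than at 0 h by 0.36 (limma adjusted p = 0.00481). SQSTM1, the autophagy receptor p62, rose instead, by 0.55 at 36 h, 1.58 at 72 h and 1.08 at 96 h (limma adjusted p = 2.68e-05). Among 6 regulators, 3 rose and 2 fell at 36 h. MAFF, a small MAF partner of NRF factors, fell by 1.17 at 18 h and rose by 1.86 at 72 h. NFE2L2 (NRF2) rose by 0.66, 0.84 and 0.41 at 53, 72 and 96 h. MAFG fell by 0.64 at 36 h. NFE2L1, the NRF1 gene, rose by 0.57 at 36 h (limma adjusted p = 0.00419) and was at 0.34 at 72 h (adjusted p = 0.0938). At 36 h its replicate 1 read 9.70, within the untreated range of 9.46 to 9.74. The rise there rests on replicates 2 and 3 (10.46 and 10.39), which were much alike over all genes.

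NRF2 targets did not follow 1 course, with 2 of 4 lower at 36 h, and 2 higher and 1 lower at 72 h. NQO1, a quinone reductase, rose by 2.57 at 72 h and 2.09 at 96 h. GCLM, of glutathione synthesis, fell by 1.71 at 36 h and 1.06 at 72 h, and TXNRD1, thioredoxin reductase, fell by 0.97 at 36 h and rose by 0.25 at 72 h (limma adjusted p = 0.0494). Of the interferon-inducible catalytic subunits, PSMB8 read 3.52, 2.70, 2.01 and 4.16 at 0 h, and 3.93, 1.74 and 2.10 at 18 h. It read 6.00, 4.66 and 4.59 at 36 h, 4.87 and 4.84 at 53 h, 4.88 and 5.37 at 72 h, and 4.14 and 4.40 at 96 h. Arrays of 36, 53 and 72 h lay above the untreated ones. PSMB8 passed the filter only through the later groups, since 1 untreated array reached log2 4, so no fold or test is given for it. PSMB9 did not exceed 1.69 on any array and PSMB10 did not pass at any time. Of 3 ubiquitin and E1 genes tested, UBA1, the main ubiquitin-activating enzyme, rose by 0.27 at 36 h and 0.42 at 96 h.

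**Figure D5:**
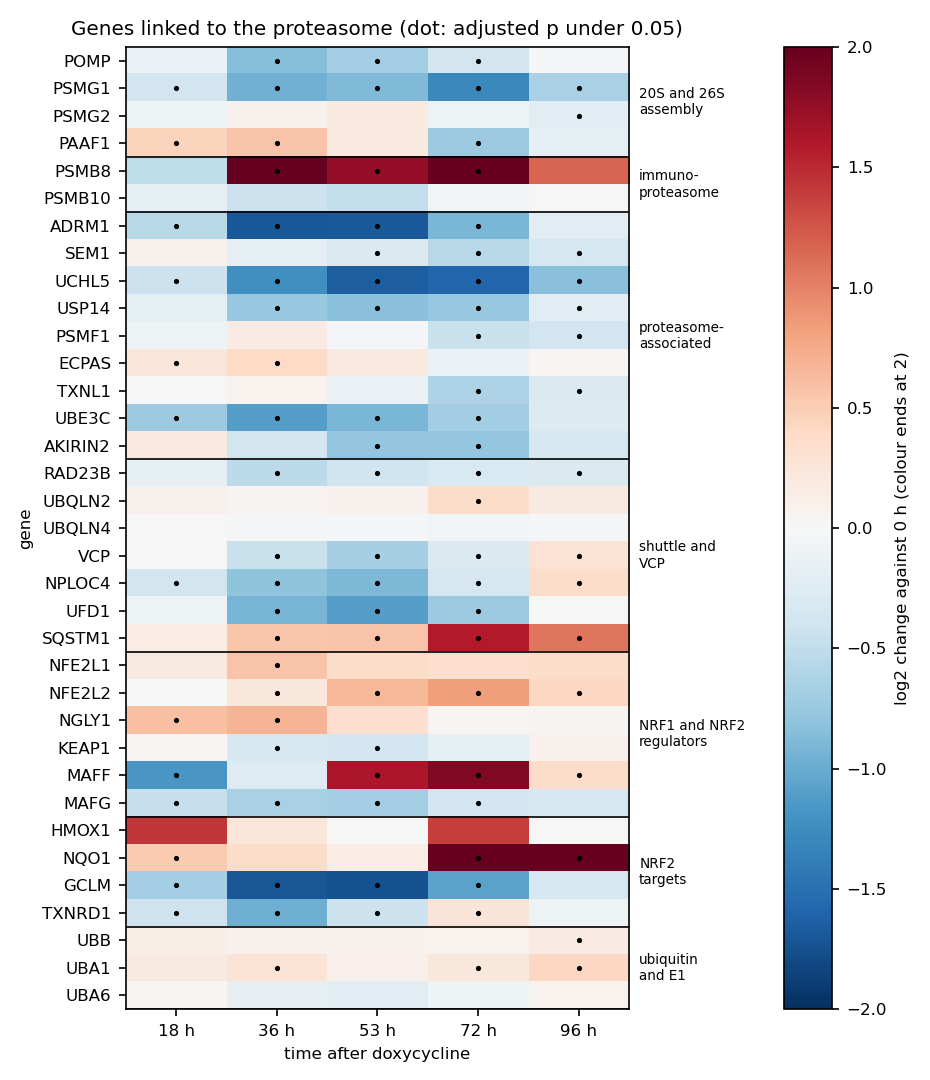
Log2 change against 0 h (colour) of 35 genes linked to the proteasome (down the page, by list) at 18, 36, 53, 72 and 96 h (across); dots mark limma adjusted p under 0.05 and the colour ends at 2. The changes and dots of PSMB8 rest on untreated values near background and are not read as a result. ADRM1, UCHL5 and GCLM are blue where SQSTM1, MAFF and NQO1 are red at 72 h.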

How the data were processed

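RNA on 16 arrays was grouped by the hours in the labels. The deposited log2 values, 1 per probe set, were made by the authors with GCRMA (per the submitters' processing notes), which corrects background from the probe sequence, scales the arrays to each other and compresses dim values. No version or settings of GCRMA were found in the labels, and the log2 scale was read from the values (0.388 to 15.2).

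Probe sets with 1 symbol in the platform annotation were used (19070 of 22277), 1 per gene, while 1043 had several symbols and 2164 had none. Genes needed log2 4 on 2 arrays, which kept 7304 and removed 4659. Models were fitted with limma 3.58.1 in R 4.3.3 (1 mean per time over all arrays, eBayes with trend, 10 residual degrees of freedom). They were also run on simulated data in which 200 genes were changed at 36, 53 and 72 h. Changes of 1 were recovered in 79%, 75% and 77% at these times and in 66% for 96 h against 72 h. Changes of 0.5 were recovered in 46%, 38%, 34% and 29%. In the data 2427 genes were called higher and 2345 lower at 36 h, far more than the 200 changed here. Adjusted p-values depend on that number, so these rates do not carry over to the data. P-values were adjusted by Benjamini-Hochberg over all genes tested, with a threshold of 0.05. Figures used matplotlib 3.10.9. Precision is limited by the number of arrays.

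The members and lists were chosen with earlier results of these data known. Values of every array are given for PSMB5, PSMB6 and PSMB7, for the smallest and largest time-course p of each sub-complex and for the 3 highest and 3 lowest changes at 72 h. Up to 3 genes per related list were named by time-course p. NFE2L1 was also named after its values were seen, as were per-array values of PSMB8. The main fit used no pairing, and the labels state none. Deviations of same-numbered arrays at 0, 18 and 36 h correlated at 0.21 to 0.63 in 9 of 9 pairs. Pairs with 53, 72 or 96 h gave -0.21 to 0.25. A fit with a replicate block was an alternative, beside other scalings, filters, probe sets and weights, and leaving out arrays. Its block joined same-numbered arrays of all times, those of 53, 72 and 96 h included.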

Additional observations from a re-analysis of the deposited data

Results flagged for a closer look

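In the 4 arrays of 0 h, the gap between 1 array and the nearest other exceeded Dixon's critical value, as a share of the group's range, in 4 of 33 proteasome genes, where chance gives about 1 in 20. For PSMC6 the share was 0.856, with replicate 4 at 12.39 against 12.63 to 12.66 on the others. PSMD4 had a share of 0.830, with replicate 4 at 11.24 against 11.60 to 11.67. For PSMD8 it was 0.889, with replicate 2 at 11.41 against 11.36 on the others. In PSMD14 it was 0.897, with replicate 1 at 12.79 against 12.65 to 12.67.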

How the results depend on the processing

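The counts and medians of the 36, 53 and 72 h groups, and of the last interval (96 h against 72 h), kept their direction in all settings run. At 18 h the count of 2 called members became 1 with the replicate block, 1 with replicates 2 and 3 averaged, 1 when _x_at and _s_at probe sets were dropped, 4 with the mean of a gene's probe sets, 5 without replicate 1 of 0, 18 and 36 h, and 9 (8 higher and 1 lower) with array weights. Dropping the _x_at and _s_at probe sets left 20 members. Of these, 18, 19, 18 and 5 were called at 36, 53, 72 and 96 h, and 16 at 96 h against 72 h. At 36 h against 18 h 18 were called and over the time course 20, with a median of -0.63 at 53 h. Centring moved the medians to -0.65, -0.92, -0.86 and -0.33 at 36, 53, 72 and 96 h and the count at 96 h to 24. The median at 36 h against 18 h was -0.67 with array weights and -0.70 without replicate 1 of 0, 18 and 36 h. PSMC2 at 72 h turned to 0.091 with the mean of its probe sets and to 0.85 without _s_at probe sets, where its value at 96 h against 72 h was -0.30. Leaving out 1 array gave counts of 1 to 3, 28 to 30, 29 to 33, 30 to 32 and 7 to 12 at 18 to 96 h, 24 to 28 at 96 h against 72 h and 28 to 31 at 36 h against 18 h, with medians at 36 h against 18 h of -0.67 to -0.52. The cause of these shifts was not tested, apart from the fewer members left. With the replicate block, which pairs arrays by number, the counts were 29, 33, 32, 9 and 30 at 36, 53, 72 and 96 h and for the last interval. It changed 10 member calls, of which PSMC6 (-0.29) and PSMD4 (-0.30) became lower at 96 h. Apart from the 18 h settings listed first, the counts of this paragraph have no share of all genes beside them. They are read only against the main counts, since that share also differs between settings.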
